A study of Mus musculus with 8 samples.

Results

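The genes described here encode the proteins of the mitochondrial ribosome. They were taken by name, as protein-coding genes whose mouse symbol is Mrpl (large subunit) or Mrps (small subunit) followed by a number, and 77 of the 43346 genes in the raw count table met this rule, 48 Mrpl and 29 Mrps genes. Mitochondria carry their own small genome, which encodes core subunits of the respiratory chain and the ribosomal RNAs of the organelle. All proteins of the ribosome that translates these messages are encoded in the nucleus, made in the cytosol and imported. Some of them descend from proteins of the bacterial ribosome, and others have no bacterial counterpart and were added in mitochondria.

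RNA came from bone of C57BL/6 mice aged 12 weeks, in fractions enriched for osteocytes, the cells that live inside mineralized bone. There were 3 groups, all of the same strain and age and without a stated treatment: the femur, a long bone (3 libraries, numbered 1, 2 and 4), the frontal bone of the skull vault (3 libraries, 1, 2 and 4) and the parietal bone of the skull vault (2 libraries, 2 and 4), the numbers being those of the deposited column names. The study asked how the transcriptome of osteocytes differs between these bones. The labels do not say whether a library holds 1 animal or a pool, or whether libraries of a bone come from separate animals, so p-values measure the spread between these libraries, which may be technical. Frontal and parietal bone together are called calvaria below, and the calvarial value in a test is the mean of both bones.

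Total gene counts ran from 6259229 to 13461622 per library. Of the 77 genes, 76 passed the filter on low counts, with 18 to 2443 counts in a library. The exception was Mrpl53, without a count in any of the 8 libraries, and 87.97% of its exon bases are shared with the protein-coding gene Gm42688. Levels are given as CPM, the counts brought to a common library total after scaling by TMM, the trimmed mean of M values, a factor for differences in library composition. Tests are edgeR's quasi-likelihood F tests over all 15511 genes that passed the filter, with Benjamini-Hochberg adjustment over those genes, and a gene was called higher or lower at an adjusted p under 0.05.

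The femur and calvarial libraries also differed in their cell type markers, and these values stand beside every comparison with femur below. The 14 osteocyte markers held 2.56 to 5.02% of the counts in femur and 0.115 to 0.189% in calvaria, where 13 of the 14 were lower and none was at 0. Erythroid markers (19 of 19 higher in calvaria) held 1.27 to 3.07% in femur and 7.44 to 11.7% in calvaria, and granulocyte markers (13 of 17 higher) 1.90 to 4.94% and 7.35 to 9.90%. Proliferation markers (16 of 16 higher) held 0.0927 to 0.151% in femur and 0.342 to 0.457% in calvaria. B cell markers were higher for 11 of 12 and monocyte and macrophage markers for 8 of 12 with 1 lower, whereas osteoblast markers were lower for 8 of 12 and endothelial markers for 10 of 10. Of the skeletal muscle markers 3 could be tested and 1 was higher. No marker of these lists was at 0 in all libraries, and their part in the results on the mitochondrial ribosome was not tested. In such bulk samples fewer cells of a type and less RNA per cell cannot be told apart.

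Both the Mrpl and the Mrps genes took a larger share of the counts in calvaria than in femur, and in parietal than in frontal bone. The Mrpl genes summed to 0.110, 0.119 and 0.124% of the gene counts in femur libraries 1, 2 and 4. They summed to 0.204, 0.209 and 0.216% in frontal libraries 1, 2 and 4, and to 0.241 and 0.245% in parietal libraries 2 and 4. The 3 bones did not overlap. The Mrps genes held 0.0554, 0.0570 and 0.0609% in femur, 0.106, 0.104 and 0.109% in frontal and 0.120 and 0.117% in parietal libraries, again without overlap between bones. Large-subunit counts were 1.94 to 2.10 times small-subunit counts in all 8 libraries, so this ratio stayed in a narrow range while both sums differed between bones.

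**Figure D1:**
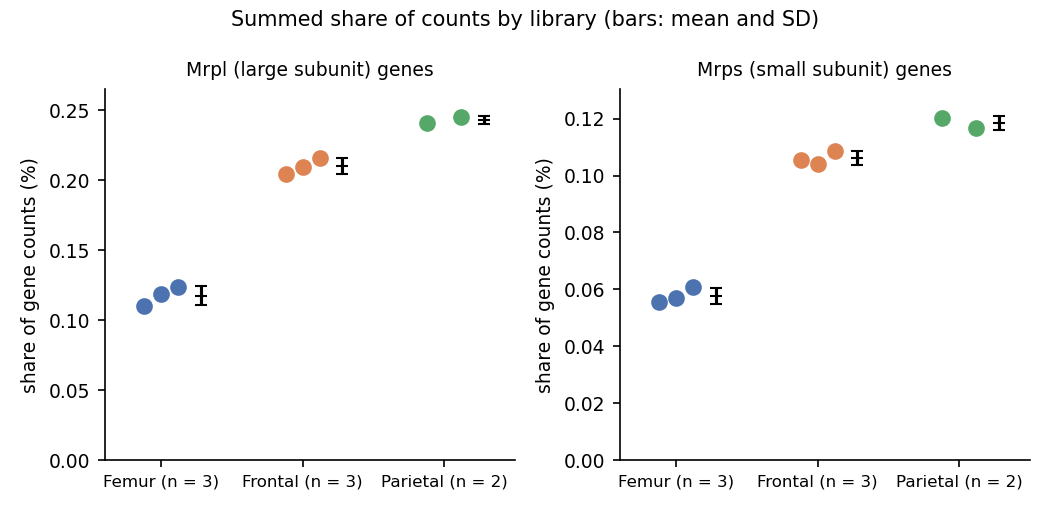
Summed share of each library's gene counts (percent, y axis) for 48 Mrpl genes (left) and 29 Mrps genes (right) in 3 femur, 3 frontal and 2 parietal libraries; points are libraries and bars the mean and SD. In both panels every femur library lies below every frontal library, and every frontal library below both parietal ones.

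In calvaria against femur, 40 of 47 tested Mrpl genes were higher and 0 were lower, with a median log2 fold change of 0.89 and 1.34-fold to 3.89-fold levels among the 40. Of the 29 Mrps genes, 21 were higher, by 1.40-fold to 3.18-fold, and 1 was lower, with a median of 0.82. Over all genes tested, 29.6% were called higher and 31.4% lower, and the median was 0.01. The calvarial libraries all lay above all femur libraries for 39 of 47 Mrpl and 21 of 29 Mrps genes, against 26% of all genes tested. They all lay below for 1 Mrpl gene, Mrpl38, and 1 Mrps gene, Mrps7, against 27.5% of all genes. A level at least 2-fold that of femur was reached by 19 Mrpl and 13 Mrps genes. The share of all genes at this fold was not counted, so these 2 counts only describe the members. Without 1 library at a time, 57 to 61 of the 76 genes were higher, against 61 with all libraries. Scaling the libraries on the osteocyte markers in place of TMM moved the median of all genes to 3.39, and relative to it the medians were 0.88 for Mrpl and 0.80 for Mrps genes. Such a scaling shifts all genes by nearly the same amount, so these relative values had to stay near those with TMM. They add no separate support.

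**Figure D2:**
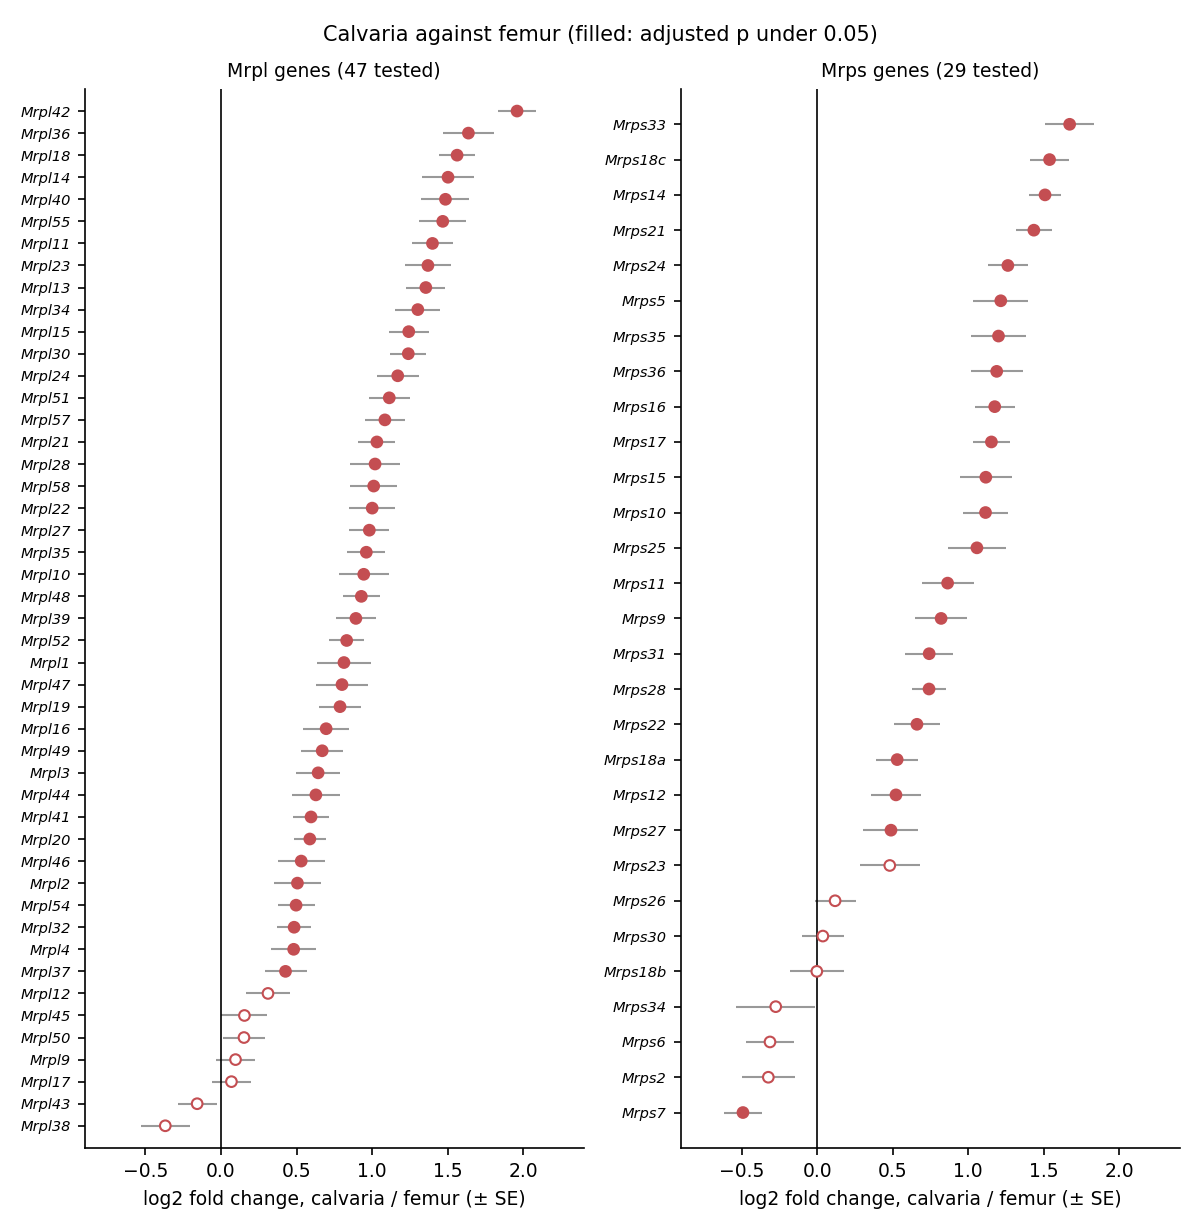
Log2 fold change of calvaria against femur (x axis, with its SE) for the 47 tested Mrpl genes (left) and 29 Mrps genes (right), ordered by size; filled circles passed an adjusted p under 0.05. Most points lie right of 0, from Mrpl42 at 1.96 down to Mrps7 at -0.49, the 1 filled circle on the left.

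Among large-subunit genes the difference was largest for Mrpl42 (ENSMUSG00000062981, chr10:95480805-95501940 on GRCm38), which encodes a protein without bacterial counterpart. Its level was 26.1, 30.7 and 29.8 CPM in femur libraries 1, 2 and 4, 81.8, 89.3 and 102 CPM in frontal libraries 1, 2 and 4, and 143 and 136 CPM in parietal libraries 2 and 4. The lowest calvarial library was thus above the highest femur library, and both parietal libraries were above all frontal ones. The log2 fold change of calvaria against femur was 1.96 ± 0.13 (SE, adjusted p = 2.74e-07 by edgeR's quasi-likelihood test).

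Mrpl36 (chr13:73328513-73332178), which encodes the homologue of bacterial L36, a very small protein of the large subunit, had 13.8, 16.1 and 23.1 CPM in femur, 50.6, 49.0 and 48.0 CPM in frontal and 59.2 and 65.2 CPM in parietal libraries. Femur library 4 was the highest of its bone and still below each calvarial library. The log2 fold change was 1.64 ± 0.17 (adjusted p = 7.87e-06). Mrpl18, the homologue of bacterial L18, had 33.1 ± 1.76 CPM in femur (SD, n = 3) and 96.9 ± 9.39 CPM in calvaria (SD, n = 5), a log2 fold change of 1.56 ± 0.12. Mrpl14, the homologue of bacterial L14, went from 11.5 ± 2.02 to 32.3 ± 4.41 CPM (log2 fold change 1.503), and Mrpl40, a mitochondria-specific protein, from 16.7 ± 2.74 to 46.6 ± 6.49 CPM (1.49). In all of these the calvarial libraries lay above the femur libraries.

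At the other end of the large subunit, 7 of 47 genes passed in neither direction. Mrpl38, a mitochondria-specific protein, had 22.5, 26.7 and 22.6 CPM in femur, 21.6, 16.2 and 21.8 CPM in frontal and 15.4 and 19.6 CPM in parietal libraries. All calvarial values were below all femur values, yet the gene did not pass (log2 fold change -0.37 ± 0.16, adjusted p = 0.0692, and 0.0463 without parietal library 4), and the value was 0.09 once the trend on exon length and GC content was taken out. Mrpl43 had a log2 fold change of -0.16, Mrpl17 of 0.07 and Mrpl9 of 0.10, all with overlapping libraries. Mrpl12 encodes the stalk protein that recruits translation factors and also binds the mitochondrial RNA polymerase. Its level was 16.3 ± 1.21 CPM in femur and 19.9 ± 3.94 CPM in calvaria, with overlapping libraries and an adjusted p of 0.0844. The calvarial bones differed here. Against femur, Mrpl12 had a log2 fold change of 0.07 in frontal bone (adjusted p = 0.738) and 0.55 in parietal bone. It was called higher in parietal bone (adjusted p = 0.0185). The call was lost without femur library 1 (adjusted p = 0.0647), without the filter on low counts and with a replicate block on the library number. Without parietal library 2 or 4, which leaves a single parietal library, the log2 fold change was 0.48 or 0.55.

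Mrpl58, also known as Ict1, encodes a peptidyl-tRNA hydrolase that frees stalled ribosomes and is built into the large subunit. It had 15.3, 18.9 and 13.5 CPM in femur, 25.3, 27.4 and 29.2 CPM in frontal and 35.01 and 40.8 CPM in parietal libraries. No femur library reached a calvarial one, and the log2 fold change was 1.01 ± 0.16 (adjusted p = 1.70e-04). Per kilobase of exon, the highest large-subunit levels over all libraries were those of Mrpl54, Mrpl20 and Mrpl18, at 45.5, 42.6 and 23.7 CPM per kb in femur, 57.0, 52.0 and 65.9 in frontal and 71.99, 78.8 and 74.4 in parietal bone. Mrpl18 was thus the lowest of the 3 in femur and the highest in frontal bone. The fold change of Mrpl54 was 1.41 and that of Mrpl20, the homologue of bacterial L20, was 1.503, both called higher.

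In the small subunit the difference was largest for Mrps33 (chr6:39801804-39810988), a mitochondria-specific protein. It had 9.28, 10.2 and 10.7 CPM in femur, 26.3, 22.6 and 30.2 CPM in frontal and 37.5 and 41.3 CPM in parietal libraries. The 3 bones did not overlap, and the log2 fold change of calvaria against femur was 1.67 ± 0.16 (adjusted p = 4.24e-06). Mrps14, the homologue of bacterial S14, was among the steadiest within femur, with 54.7, 54.9 and 55.3 CPM, against 136, 133 and 140 CPM in frontal and 187 and 171 CPM in parietal libraries. Every calvarial library had over 2 times the femur level (fold change 2.84, adjusted p = 4.70e-07). Mrps21 and Mrps24, homologues of bacterial S21 and S3, were 2.70-fold and 2.398-fold higher. Mrps24 shares 15.42% of its exon bases with Urgcp on the same strand, which had a log2 fold change of -2.40. Over all libraries Mrps21 also had the highest small-subunit level per kilobase, at 33.7 CPM per kb in femur, 80.5 in frontal and 102 in parietal bone, followed by Mrps18c and by Mrps28, the homologue of bacterial S1. In femur alone Mrps28 was above both, at 41.4 CPM per kb.

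Mrps7 was the member called lower in calvaria. It encodes the homologue of bacterial S7, which organizes the head of the small subunit, and lies at chr11:115603925-115608036. Its level was 62.6, 65.8 and 49.5 CPM in femur, 41.8, 42.0 and 45.5 CPM in frontal and 42.7 and 39.7 CPM in parietal libraries. Femur library 4 was nearest to the calvarial range and did not enter it. The log2 fold change was -0.49 ± 0.13 (adjusted p = 0.00507), -0.46 for frontal and -0.52 for parietal bone against the same femur libraries. For calvaria the call held without each library in turn, with an adjusted p of at most 0.0358, reached without femur library 2. For Mrps7 in frontal bone the adjusted p was 0.0734 without femur library 2 and 0.05001 without frontal library 1, and in parietal bone 0.0587 without femur library 2 and 0.0822 without parietal library 4. On the osteocyte marker scaling the value of Mrps7 was 2.91, which is -0.47 relative to the median of all genes, a relative value that this scaling could hardly change. Mrps7 shares 6.13% of its exon bases with Gga3 and 5.74% with Mif4gd on the opposite strand, and Mif4gd had a log2 fold change of -0.47 (adjusted p = 0.00964).

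The other small-subunit genes at this end did not pass. Mrps2 had 15.3 ± 0.874 CPM in femur and 12.7 ± 2.92 CPM in calvaria, Mrps6 36.6 ± 3.98 and 29.1 ± 4.96 CPM, with overlapping libraries in both. Without frontal library 4 the adjusted p of Mrps6 was 0.0171. Mrps6 shares 10.37% of its exon bases with Slc5a3 on the same strand, which had a log2 fold change of -1.74, so its counts are uncertain too. Mrps34 had 4.93 ± 1.01 CPM in femur and 3.97 ± 0.896 CPM in calvaria, also with overlapping libraries. Its exons overlap those of Mapk8ip3 on the opposite strand over 63.42% of their bases and those of Nme3 on the same strand over 36.97%, so its counts are uncertain. Mapk8ip3 had a log2 fold change of -1.77. Mrps12, the homologue of bacterial S12 at the decoding centre, was 1.43-fold higher in calvaria (adjusted p = 0.0168). For Mrps12 the adjusted p was 0.0828 without femur library 1, 0.0659 without femur library 2 and 0.0562 without parietal library 4.

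Some symbols of the small-subunit series name proteins that sit elsewhere. Mrps30 and Mrps18a are built into the large subunit of the mammalian mitochondrial ribosome, and the product of Mrps36 is now known as a component of the 2-oxoglutarate dehydrogenase complex. Mrps30 had 22.2, 19.4 and 21.5 CPM in femur, 21.0, 23.0 and 19.2 CPM in frontal and 22.7 and 21.1 CPM in parietal libraries. These 3 ranges overlapped, and the fold change was 1.03 (log2 0.04 ± 0.14, adjusted p = 0.834). Mrps36 had 13.1, 15.4 and 20.1 CPM in femur, 33.6, 33.0 and 42.4 CPM in frontal and 37.8 CPM in both parietal libraries. The calvarial libraries lay above those of femur, by a log2 fold change of 1.19 ± 0.17 (adjusted p = 9.51e-05).

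Mammals have a trio of paralogues of bacterial S18: Mrps18c and Mrps18b in the small subunit and Mrps18a in the large. Mrps18c (chr5:100798627-100804471) had 28.5, 31.6 and 37.5 CPM in femur, 76.9, 77.7 and 90.3 CPM in frontal and 114 and 106 CPM in parietal libraries. The 3 bones did not overlap (log2 fold change of calvaria against femur 1.54 ± 0.13, adjusted p = 1.95e-06). Mrps18a (chr17:46110986-46128910) had 27.2, 27.8 and 26.6 CPM in femur, 44.3, 34.5 and 43.3 CPM in frontal and 41.9 and 33.8 CPM in parietal libraries. It was higher in all calvarial libraries, by 0.53 ± 0.14 on the log2 scale (adjusted p = 0.00660). Mrps18b (chr17:35910379-35916389) had 13.1, 8.97 and 10.7 CPM in femur, 10.6, 11.9 and 10.4 CPM in frontal and 11.1 and 10.1 CPM in parietal libraries. All bones overlapped (log2 fold change -0.00 ± 0.18, adjusted p = 0.988). Mrps18b shares 30.54% of its exon bases with the antisense gene Gm16279, which had a mean of 0.49 CPM over all libraries, so its counts are uncertain too.

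The ratio of Mrps18c to Mrps18b, each per kilobase of exon, was 4.24, 6.85 and 6.77 in femur, 14.0, 12.6 and 16.9 in frontal and 20.0 and 20.3 in parietal libraries. Every calvarial ratio was above every femur ratio, and within one library this ratio does not depend on the scaling. The difference of the mean log2 ratios was 1.503 and ran from 1.275 to 1.621 with 1 library left out at a time. For Mrps18c to Mrps18a it was 0.97 (0.868 to 1.095) and for Mrps18a to Mrps18b 0.53 (0.392 to 0.679). This set of ratios was chosen after the values had been seen, so they are given without a test.

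**Figure D3:**
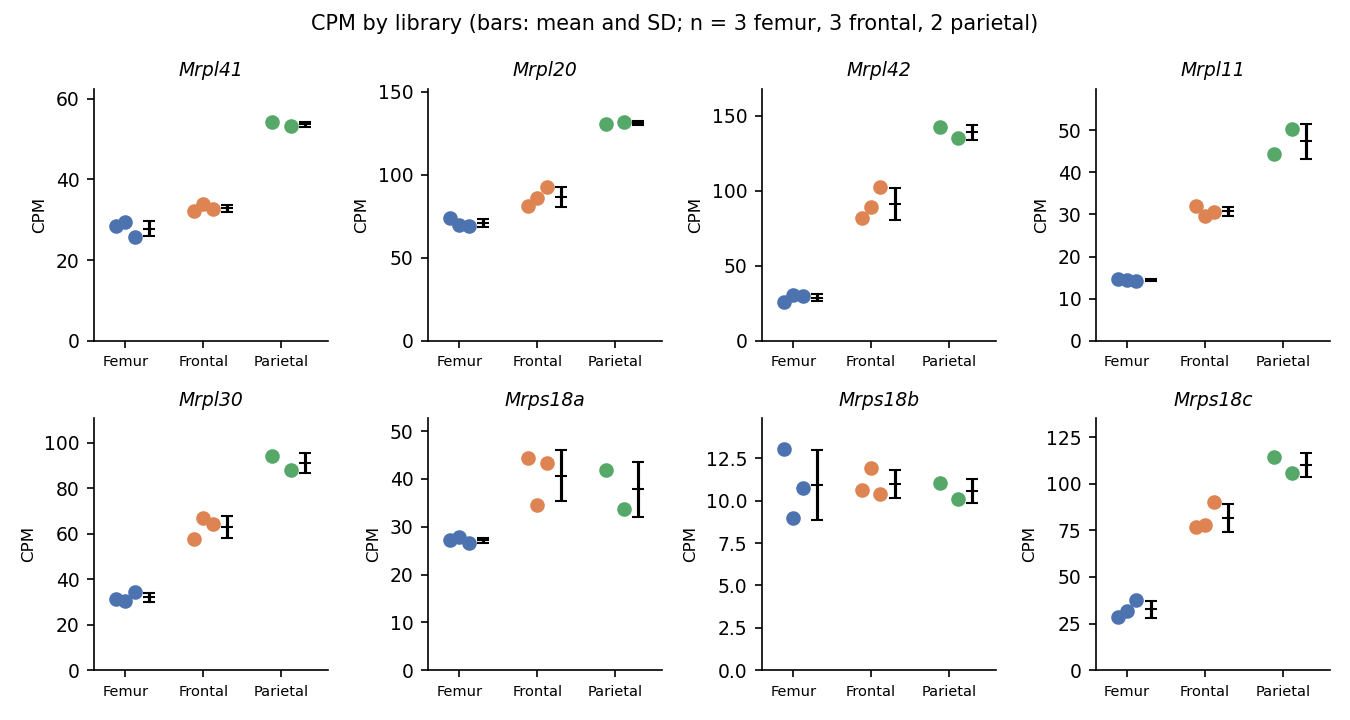
CPM (y axis) by bone for 5 large-subunit genes called lower in frontal than in parietal bone and for the S18 paralogues; points are libraries (3 femur, 3 frontal, 2 parietal) and bars the mean and SD. Mrpl41, Mrpl20, Mrpl42, Mrpl11 and Mrpl30 are highest in both parietal libraries, whereas Mrps18b spans 8.97 to 13.1 CPM in femur and 10.1 to 11.9 CPM in calvaria.

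Each calvarial bone was also set against the femur libraries, which both comparisons share. In frontal bone 35 of 47 Mrpl genes were higher and 0 lower (median log2 fold change 0.71), and 20 of 29 Mrps genes were higher and 1, Mrps7, lower (median 0.79). Over all genes tested, 27.2% were higher and 28.5% lower in frontal bone, and the median was 0.02. In parietal bone 39 of 47 Mrpl genes were higher and 0 lower (median 1.03), and 19 of 29 Mrps genes were higher and 1, again Mrps7, lower (median 0.94), against 27.1% higher and 28.6% lower over all genes and a median of 0.01. Mrpl42 had log2 fold changes of 1.65 ± 0.14 in frontal and 2.26 ± 0.15 in parietal bone. For Mrps33 they were 1.38 ± 0.17 and 1.96 ± 0.18, and for Mrpl55, the homologue of bacterial L31, 1.29 ± 0.17 and 1.65 ± 0.18. Mrpl41 and Mrpl20 had 0.24 and 0.29 in frontal bone, without a call, and 0.95 and 0.89 in parietal bone, with adjusted p-values of 1.75e-04 and 1.21e-04. Mrpl4, the homologue of bacterial L4, went the other way, with 0.74 (adjusted p = 0.00254) in frontal and 0.22 (adjusted p = 0.320) in parietal bone.

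**Figure D4:**
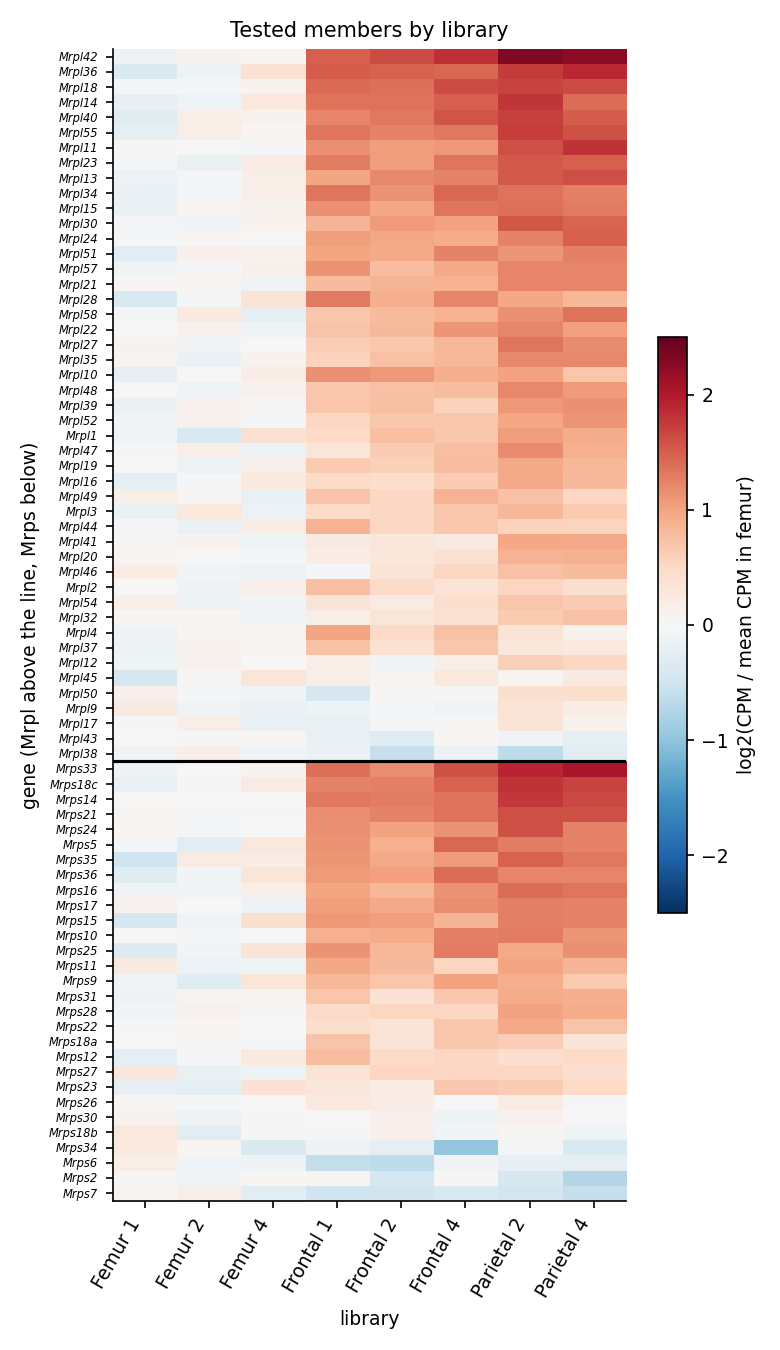
Log2 of CPM over the mean CPM in femur (colour scale from -2.5 to 2.5) for the 76 tested members (rows, Mrpl above the line and Mrps below, ordered by calvaria against femur) in the 8 libraries (columns). The frontal and parietal columns are red in most rows and deepest in parietal libraries for Mrpl42 and Mrps33, and the lowest rows of each block are pale or blue.

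The test of frontal against parietal bone bears on these differences directly. In it 5 of 47 Mrpl genes were lower in frontal bone and 0 higher (median log2 fold change -0.34), and of 29 Mrps genes 0 were called in either direction by edgeR (median -0.18). Over all genes tested, 3.29% were lower and 3.91% higher, and the median was -0.02. These counts over all genes moved from 511 lower and 607 higher to 0 of each when femur library 2, frontal library 1 or either parietal library was left out or a replicate block was fitted, and reached 1036 lower and 927 higher without frontal library 2. At an unadjusted p under 0.05, 20 Mrpl genes were lower and 1 higher and 7 Mrps genes were lower and 0 higher. The share of all genes at that unadjusted threshold was not counted, so the 3.29% is no measure for these counts. DESeq2 called 6 Mrpl and 3 Mrps genes lower and 0 higher, against 874 lower and 1165 higher over all genes. All frontal libraries lay below both parietal libraries for 29 of 47 Mrpl and 12 of 29 Mrps genes, against 25.6% of all genes tested.

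The genes called lower in frontal bone were Mrpl41 (log2 fold change -0.71), Mrpl11 (-0.62), Mrpl42 (-0.61), Mrpl20 (-0.60) and Mrpl30 (-0.53). Mrpl41, a mitochondria-specific protein, had 32.3, 33.8 and 32.6 CPM in frontal libraries 1, 2 and 4 and 54.1 and 53.3 CPM in parietal libraries 2 and 4, with 28.4, 29.4 and 25.7 CPM in femur. Frontal bone was thus nearer to femur than to parietal bone for this gene (adjusted p = 0.0295 for frontal against parietal). Mrpl20 showed the same order, with 80.9, 86.1 and 92.7 CPM in frontal, 130 and 132 CPM in parietal and 73.9, 70.0 and 68.8 CPM in femur libraries (adjusted p = 0.0309). Mrpl11, which encodes a protein at the base of the stalk, had 31.9, 29.7 and 30.6 CPM in frontal and 44.4 and 50.3 CPM in parietal libraries, with 14.2 to 14.8 CPM in femur (adjusted p = 0.0377). Mrpl30 had 57.7, 66.7 and 64.3 CPM in frontal and 94.3 and 88.0 CPM in parietal libraries (adjusted p = 0.0410). For all 5, the parietal libraries were the highest and did not overlap the frontal ones.

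These 5 calls rest on few libraries. Leaving out femur library 2, frontal library 1 or either parietal library brought the count to 0, leaving out frontal library 4 to 2, and leaving out any other to 5 or 6. It was also 0 with a replicate block on the library number, after taking out the trend on exon length and GC content, and on the osteocyte marker scaling. The direction of all 5 was the same in each of these fits, but the 5 were picked for this direction in the same libraries, so this adds no support. The erythroid share was 7.76 to 11.7% in frontal and 7.44 to 8.08% in parietal libraries, which overlapped. The proliferation share was 0.420 to 0.457% and 0.342 to 0.352%, higher in frontal bone, where the Mrp shares were lower. The monocyte and macrophage share was 1.33 to 1.40% in frontal and 1.58 to 1.78% in parietal libraries. The osteoblast share was 1.22 to 3.28% in frontal and 2.84 to 3.05% in parietal libraries, which overlapped. In frontal against parietal bone 5 of 12 osteoblast markers were lower and 0 higher, against 3.29% and 3.91% of all genes. Proliferation markers were higher for 5 of 16 and erythroid markers for 1 of 19, with 0 lower in both. The part of these cells was not tested. Mrpl4 (45.4 ± 7.91 CPM in frontal, 31.6 ± 4.13 CPM in parietal bone) and Mrpl37 (36.9 ± 4.74 and 29.1 ± 0.630 CPM) were the tested members whose frontal libraries all lay above both parietal ones, against 21.9% of all genes, and neither passed (adjusted p = 0.0936 and 0.203).

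Members classed as having a homologue in the bacterial ribosome were compared with those classed as mitochondria-specific, leaving out Mrps36. Of the 46 bacterial-type genes, 40 were higher in calvaria than in femur and 1 lower, with a median log2 fold change of 0.99. Of the 29 tested mitochondria-specific genes, 20 were higher and 0 lower, with a median of 0.63, and this class held both the largest value, Mrpl42 at 1.96, and values below 0 such as Mrpl38. Over all genes tested, 29.6% were higher and 31.4% lower. The difference between the classes was not tested. The classes came from structural knowledge of the mammalian ribosome. Mrps18b was counted with the mitochondria-specific genes and its paralogues Mrps18a and Mrps18c with the bacterial-type ones. For this trio, all paralogues of bacterial S18, the classes thus do not follow homology.

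Exon length was compared, because tested members were shorter in the median than all genes. The median exon length was 2394 bases for tested members and 4011 bases for all genes tested. Across all 15511 genes the Spearman correlation of exon length with the log2 fold change of calvaria against femur was -0.30. Across the 76 members, which share the same libraries, it was -0.04. Among the 4149 tested genes no longer than the members' median, 42.49% were higher in calvaria and 634 genes were lower, with a median log2 fold change of 0.49. Of the 38 members up to this length, 30 were higher (median 0.85), and of the 38 longer ones 31 were higher (median 0.86). Once the trend on exon length and GC content was taken out, 36 of 47 Mrpl and 21 of 29 Mrps genes were higher, with medians of 0.78 and 0.72. The median of all genes was then 0.095. Relative to the median of all genes, the Mrpl median went from 0.88 to 0.69 and the Mrps median from 0.81 to 0.63. The share of all genes called higher in that fit is not given here.

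Many members lie close to another gene. Exon bases were shared with a neighbour by 31 of the 77, over 10% of the bases in 16, and since the strand setting of the counting is not given in the sources used here, reads in shared bases cannot be assigned with certainty. Mrps25 (log2 fold change 1.06) shares 69.8% of its exon bases with Nr2c2 on the opposite strand, which was lower in calvaria (-1.37). Members named above are affected too. Mrpl43 shares 33.36% with Twnk (-0.33), Mrpl14 11.17% with Tmem63b (-1.45) and Mrpl18 10.09% with Tcp1 (0.21), each on the opposite strand. Tcp1 had a mean of 181 CPM over all libraries. A protein-coding gene starting on the opposite strand within 1000 bases was found for 33 members. For 30 of these members the partner was tested too. Of these partners 14 were higher in calvaria and 6 lower, with a median log2 fold change of 0.37, against 29.6% higher and 31.4% lower among all genes. The members Mrpl46 (0.53) and Mrps11 (0.86) are partners of each other, so this pair was counted from both sides and both genes are among the 14. Mrpl36 starts 29 bases from Ndufs6, a subunit of respiratory complex I, whose log2 fold change was 1.29, and Mrps18c starts 29 bases from the DNA helicase gene Helq (1.27). Mrpl54 starts 26 bases from Apba3, and here the log2 fold changes were 0.50 for Mrpl54 and -1.90 for Apba3. A shared start region thus went with the same direction in the first pairs and with opposite directions in the last.

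Promoters of these genes were searched for 3 short motifs of factors known for nuclear genes of mitochondrial proteins: NRF1 (a palindrome of 10 bases, spelled out in capitals in the Mrpl9 sequence below), ETS factors such as GABP (CCGGAAG) and YY1 (AAGATGG). Windows of 300 bases, 250 before the start and 50 after it, were available from RefSeq on GRCm38.p6 for 68 members and 27025 genes, and both strands were read. The ETS letters end in the AAG with which the YY1 letters begin, so these matches can share bases. The NRF1 letters were found in 3 of 68 members (4.41%, against 1.07% of all genes), the ETS letters in 25 (36.8% against 9.93%) and the YY1 letters in 13 (19.1% against 7.28%). At least 1 of the 3 was found in 52.9% of members and 17.1% of all genes. Tested members with a match had a median log2 fold change of calvaria against femur of 0.89 (35 genes) and those without one of 0.88 (32 genes). By motif, the medians with and without a match were 0.48 and 0.94 for NRF1 (3 and 64 genes), 0.96 and 0.86 for ETS (24 and 43 genes) and 0.67 and 0.96 for YY1 (13 and 54 genes), and these differences were not tested. A match is a string of letters in a window and says nothing of binding in these samples.

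The upstream sequences of 4 named members with a match outside annotated exons are shown, because they pair a motif with a member that was higher in calvaria or with one that was not. Capitals mark the match, each sequence runs 5′ to 3′ on the strand of the gene, and bases that GENCODE M21 places in an exon were left out. Mrpl58 (log2 fold change 1.01, chr11:115403502-115403751, plus strand, ETS match 10 bases before the start) and Mrps18a (0.53, chr17:46110754-46110985, plus strand, ETS match 19 bases before the start) were called higher. Mrpl9 (0.10, chr3:94443086-94443317, plus strand, NRF1 match 18 bases before the start) and Mrpl17 (0.07, chr7:105811100-105811337, minus strand, ETS match 230 bases before the start) were not.
Mrpl58: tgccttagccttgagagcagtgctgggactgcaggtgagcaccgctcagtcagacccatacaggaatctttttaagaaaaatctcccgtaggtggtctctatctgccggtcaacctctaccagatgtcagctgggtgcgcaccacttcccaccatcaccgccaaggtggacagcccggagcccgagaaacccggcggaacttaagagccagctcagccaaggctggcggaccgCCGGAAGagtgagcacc
Mrps18a: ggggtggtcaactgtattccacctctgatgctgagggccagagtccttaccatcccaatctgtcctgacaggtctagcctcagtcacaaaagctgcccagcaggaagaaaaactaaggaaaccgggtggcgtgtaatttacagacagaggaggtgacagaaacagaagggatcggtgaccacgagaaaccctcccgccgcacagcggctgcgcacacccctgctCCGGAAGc
Mrpl9: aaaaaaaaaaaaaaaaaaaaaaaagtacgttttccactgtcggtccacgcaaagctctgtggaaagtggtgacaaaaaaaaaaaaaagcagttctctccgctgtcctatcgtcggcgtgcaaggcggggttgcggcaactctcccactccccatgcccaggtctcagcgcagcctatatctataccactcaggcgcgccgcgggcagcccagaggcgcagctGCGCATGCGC
Mrpl17: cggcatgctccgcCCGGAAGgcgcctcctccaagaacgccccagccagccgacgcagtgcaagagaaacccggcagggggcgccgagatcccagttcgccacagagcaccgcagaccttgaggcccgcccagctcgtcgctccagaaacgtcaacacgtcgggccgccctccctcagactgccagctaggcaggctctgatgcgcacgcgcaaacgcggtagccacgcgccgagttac

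Other genes of mitochondrial protein synthesis were read beside the ribosomal proteins in calvaria against femur. Of 5 further ribosomal proteins whose symbols do not follow the rule, 4 were higher and 0 lower (median log2 fold change 0.79). Chchd1, of the small subunit, had 42.7 ± 3.99 CPM in femur and 85.6 ± 20.1 CPM in calvaria (log2 fold change 1.03), and Dap3, the GTP-binding protein of the small subunit, 37.9 ± 4.49 and 65.1 ± 5.44 CPM (0.79). Of 29 tested assembly factors 9 were higher and 1 lower (median 0.29), a count of higher genes near the 29.6% of all genes. Mtg1, a GTPase of large-subunit assembly, had a log2 fold change of 1.96 ± 0.24, Mettl15, a methyltransferase for the small ribosomal RNA, 1.43 ± 0.24 and Gtpbp6, a GTP-binding protein of the ribosome cycle, -1.55 ± 0.25. Of 16 translation factors and partners 7 were higher and 0 lower (median 0.33), among them the RNA-binding protein Slirp (1.52) and the initiation factor Mtif2 (1.30). Of 20 genes that charge transfer RNAs 9 were higher and 2 lower (median 0.41), with Rars2 at 1.58, Mars2 at -0.62 (adjusted p = 0.0505 without femur library 1) and Aars2 at -0.74 (0.0549 without femur library 2), the last being 0.11 once the trend on exon length and GC content was taken out.

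The genome of the organelle showed another pattern. Of 13 mitochondrially encoded messages 5 were higher in calvaria than in femur and 0 lower (median 0.33), against 29.6% and 31.4% of all genes. Among the 5 were mt-Atp6 at 0.54 ± 0.16 and mt-Atp8 at 0.60 ± 0.20, which both had -0.40 once that trend was taken out. The 5 became 10 without femur library 1, 0 without femur library 2 or femur library 4, 1 without parietal library 2 and 2 without parietal library 4, and 8 with the replicate block. Against the same femur libraries, 0 of the 13 were called in frontal bone (median -0.07) and 11 were higher in parietal bone (median 0.73), or 4 to 13 with 1 library left out at a time. Over all genes tested, 27.2% were higher and 28.5% lower in frontal bone, and 27.1% and 28.6% in parietal bone. For mt-Atp6 the log2 fold changes were 0.06 in frontal and 1.02 in parietal bone, and for mt-Atp8 0.13 and 1.07. Both mitochondrial ribosomal RNAs were lower, mt-Rnr1 with 415 ± 54.5 CPM in femur and 253 ± 81.2 CPM in calvaria (log2 fold change -0.68) and mt-Rnr2 with 5963 ± 1277 and 3554 ± 1042 CPM (-0.72). Femur libraries held 0.493 to 0.723% of their counts in the 2 RNAs, frontal libraries 0.264 to 0.365% and parietal libraries 0.483 to 0.503%. Against femur, the 2 RNAs were lower in frontal bone (both called) and were not called in parietal bone (log2 fold changes -0.32 and -0.36). How ribosomal RNA was removed or retained in these libraries is not given in the sources used here, so their counts need not follow their amounts in the cell. Between the calvarial bones, 10 of the 13 messages and mt-Rnr1 were lower in frontal than in parietal bone, against 3.29% of all genes (medians -0.87 and, for both RNAs, -0.72). All 11 calls were lost without femur library 2, frontal library 1, frontal library 4 or either parietal library and with the replicate block, and that of mt-Rnr1 also without frontal library 2.

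Of 15 genes of mitochondrial DNA transcription and maintenance 5 were higher in calvaria and 4 lower (median 0.04), near the 29.6% and 31.4% of all genes. Ssbp1, which coats single-stranded mitochondrial DNA, went from 21.9 ± 0.301 CPM in femur to 55.05 ± 6.30 CPM in calvaria (log2 fold change 1.35), and Pnpt1, an RNA-degrading enzyme, had 0.97. Among the 4 lower ones, Polg, which copies mitochondrial DNA, went from 54.2 ± 1.76 to 18.8 ± 5.73 CPM (-1.63) and Polrmt, the RNA polymerase, from 16.9 ± 2.04 to 4.44 ± 1.29 CPM (-1.95). Of 9 regulators of mitochondrial biogenesis 0 were higher and 5 lower (median -0.45), among them the coactivator Pprc1 (-2.14 ± 0.11) and Myc (-1.63 ± 0.12). Of the factors whose motifs were searched, Nrf1 had 54.4 ± 1.90 and 58.5 ± 9.69 CPM and did not pass (adjusted p = 0.741), while Gabpa (log2 fold change -1.03, adjusted p = 3.37e-04) and Yy1 (-0.45, adjusted p = 0.0237) were lower. Each gene outside the Mrp families named here as lower in calvaria than in femur had a value above 0 on the osteocyte marker scaling, where the median of all genes was 3.39.

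**Figure D5:**
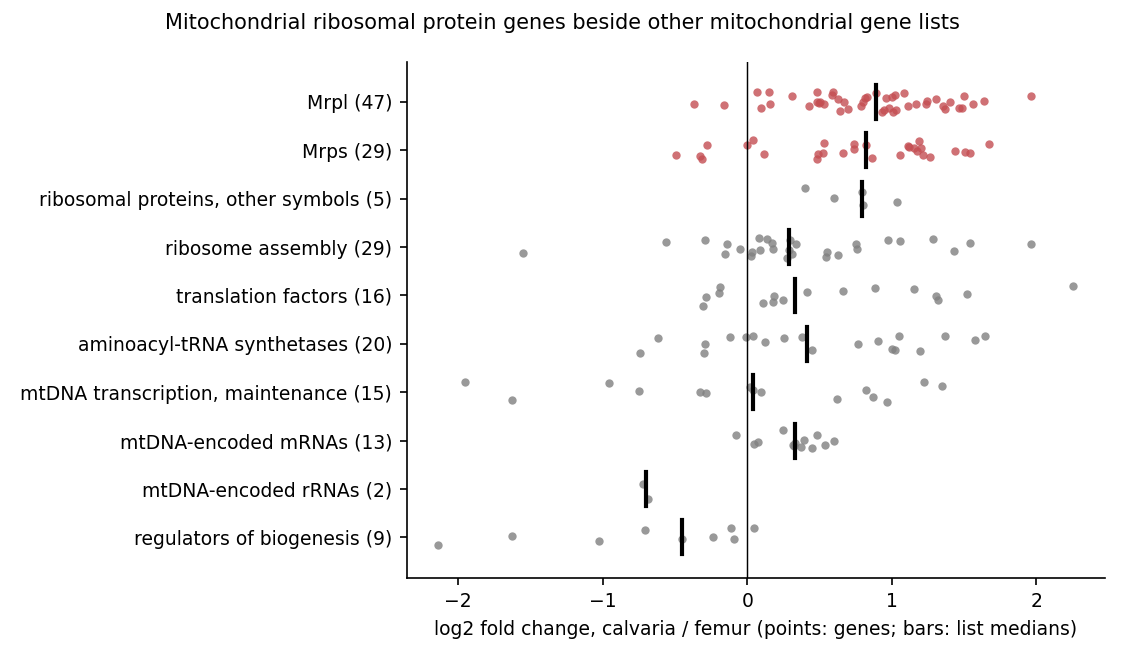
Log2 fold change of calvaria against femur (x axis) for single genes (points, with vertical scatter for legibility) in the Mrpl and Mrps lists (red) and in 8 other mitochondrial lists (grey), with the number of tested genes in brackets; black bars are list medians. The medians are 0.89 and 0.82 for Mrpl and Mrps, 0.29 to 0.41 for assembly, translation factors and transfer RNA charging, and -0.70 and -0.45 for the 2 ribosomal RNAs and the regulators.

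The proteins of the cytosolic ribosome (Rpl and Rps genes) are given for comparison. In calvaria against femur 68 of 75 tested genes were higher and 0 lower, against 29.6% and 31.4% of all genes, with a median log2 fold change of 0.70. Their summed share was 1.36 to 1.48% in femur, 2.06 to 2.08% in frontal and 2.75 to 2.91% in parietal libraries. Both families thus had the same order of bones. In frontal against parietal bone 55 of 75 cytosolic genes were lower and 0 higher (median -0.54), against 3.29% of all genes lower and beside 5 of 47 Mrpl and 0 of 29 Mrps genes. The 55 became 0 without femur library 2, frontal library 1 or either parietal library and with the replicate block, and 18 without frontal library 4. The difference between the 2 families was not tested.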

How the data were processed

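RNA-seq gene counts of 8 libraries were analysed (3 femur, 3 frontal, 2 parietal). The authors deposited raw counts per gene; per the submitters' processing notes, STAR 2.5.2a and the mouse build GRCm38.p3 (mm10) were used, while for the annotation version and the strand setting of the counting the sources used here give nothing. The 92 spike-in features were left out (0.0286 to 0.176% of a library's counts). The mitochondrial ribosomal gene Mrpl33 was not analysed here. Gene positions and exons were taken from GENCODE M21 (GRCm38).

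The test was edgeR's, version 4.0.16 under R 4.3.3 (TMM, filterByExpr, robust quasi-likelihood fit, bones as groups, 5 residual degrees of freedom, common biological coefficient of variation 18.6%), with Benjamini-Hochberg adjustment over 15511 genes. The procedure was tested on simulated data. Alternatives were DESeq2 1.42.0, other scalings, no count filter, removal of a trend on length and GC content, a replicate block and leaving out each library. Named per comparison and subunit were the 5 highest and 4 lowest fold changes, the 3 highest levels per length, called members against the majority and a fixed list, and from other lists the 2 smallest p-values per direction, of which 1 gene is not reported here. Neighbours and genes in motif or overlap examples were chosen after their values were seen. The members and lists were chosen with earlier results of these data known.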

Additional observations from a re-analysis of the deposited data

Results flagged for a closer look

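For 5 large-subunit genes the effect in frontal bone and the effect in parietal bone, both against the same femur libraries, differed by the test of frontal against parietal bone itself. The log2 difference was -0.706 for Mrpl41, -0.622 for Mrpl11, -0.609 for Mrpl42, -0.599 for Mrpl20 and -0.534 for Mrpl30, with all 3 frontal libraries below both parietal libraries in each. All 5 calls were lost without femur library 2, frontal library 1 or either parietal library, and with a replicate block.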

How the results depend on the processing

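Of the 61 members higher in calvaria than in femur, 56 to 61 kept the call under each alternative that was run. On the osteocyte marker scaling all 76 tested members were called higher, so keeping the call there was no test. Scaling on the osteocyte markers moved the median log2 fold change of all genes to 3.388 (calvaria), 3.499 (frontal) and 3.273 (parietal against femur) and to 0.181 (frontal against parietal). Under it the Mrpl and Mrps medians were 4.271 and 4.186 for calvaria, 4.201 and 4.297 for frontal and 4.316 and 4.228 for parietal bone against femur, and -0.126 and 0.025 for frontal against parietal, with 0 Mrps genes lower in any comparison with femur, 29 Mrps genes higher in parietal bone and 0 Mrpl genes lower in frontal against parietal bone. By construction it also turned genes below 0 to values above it. In calvaria these were Mrpl38 3.022, Mrpl43 3.227, Mrps7 2.913, Mrps2 3.069, Mrps6 3.085, Mrps34 3.127, Mrps18b 3.384, Gtpbp6 1.828, Mars2 2.79, Aars2 2.621, Polg 1.759, Polrmt 1.436, mt-Rnr2 2.694, mt-Rnr1 2.718, Pprc1 1.258, Myc 1.762, Mapk8ip3 1.626, Nr2c2 1.999 and Apba3 1.492. In frontal bone they were Mrpl38 3.229, Mrpl43 3.341, Mrpl50 3.372, Mrpl9 3.43, Mrps7 3.048, Mrps6 3.09, Mrps34 3.135 and Mrps2 3.399, and in parietal bone Mrpl38 2.815, Mrpl43 3.114, Mrps2 2.739, Mrps7 2.778, Mrps6 3.08, Mrps34 3.12 and Mrps18b 3.257. Between frontal and parietal bone Mrpl18 had 0.032, Mrps30 0.151 and Mrps36 0.148.

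Scaling by library size alone gave Mrpl and Mrps medians of 0.988 and 0.909 for calvaria and 0.844 and 0.929 for frontal bone against femur, an Mrpl median of 1.088 for parietal bone, and -0.26 and -0.098 for frontal against parietal, with 0 Mrps genes lower in frontal bone against femur and 3 Mrpl genes lower in frontal against parietal. Mrps18b had 0.093 (calvaria) and 0.024 (parietal), and in frontal bone Mrpl50 had 0.027, Mrpl9 0.065 and Mrps2 0.026. Frontal against parietal, Mrps30 had 0.033 and Mrps36 0.014. With the trend on length and GC content removed, 1 Mrpl gene was lower in each comparison with femur, 3 Mrps genes were lower in calvaria and 2 in frontal and in parietal bone, and 0 Mrpl genes were lower in frontal against parietal. The medians were 0.783 (Mrpl) and 0.724 (Mrps) for calvaria, 0.663 (Mrpl) for frontal and 0.795 and 0.76 for parietal bone. For frontal against parietal the Mrpl median was -0.2. The medians of all genes in these fits were 0.095 for calvaria, 0.109 for frontal and 0.079 for parietal bone. For frontal against parietal the median of all genes was 0.011. Directions turned for Mrpl38 (0.094, 0.111 and 0.077 in calvaria, frontal and parietal bone), Mrps34 (0.171, 0.03 and 0.312), Mrpl9 (-0.066), Aars2 (0.115), mt-Atp6 (-0.397) and mt-Atp8 (-0.402) in calvaria, Mrps18b (-0.16) in frontal and Mrpl45 (-0.129) and Mrps30 (-0.01) in parietal bone. Frontal against parietal, they turned for Mrps26 (-0.124), Mrps7 (-0.032), Mrps18a (-0.136), Mrps18c (0.027), Mrps30 (0.212) and Mrps36 (0.274). The cause of these changes was not tested. RLE scaling gave 2 Mrps genes lower in parietal bone and -0.002 for Mrps30 in frontal bone. Without a count filter 0 Mrps genes were lower in frontal bone, 3 Mrpl genes were lower in frontal against parietal and Mrps18b had 0.024 in calvaria. DESeq2 called 3 Mrps genes lower in frontal against parietal.

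The labels do not say that the library numbers pair the bones, and deviations of libraries with the same number correlated at -0.103 to 0.145. With a replicate block on the number, 0 Mrpl genes were lower in frontal against parietal, the Mrpl median in parietal bone was 0.961, Mrps18b had 0.027 (calvaria) and 0.025 (parietal), and Mrps36 had 0.02 in frontal against parietal. Leaving out each library in turn, calvaria against femur gave 0 to 1 Mrpl and 1 to 2 Mrps genes lower, medians of 0.797 to 0.9 (Mrpl) and 0.738 to 0.859 (Mrps), and -0.016 to 0.156 for Mrpl17, -0.142 to 0.109 for Mrps18b and -0.028 to 0.053 for Mrps30. For frontal bone the medians were 0.698 to 0.772 and 0.692 to 0.8, with 0 to 2 Mrps genes lower, and Mrpl50 had -0.179 to 0.028, Mrpl9 -0.151 to 0.035, Mrps2 -0.192 to 0.051, Mrps18b -0.114 to 0.155 and Mrps30 -0.054 to 0.081. For parietal bone the Mrpl median was 0.908 to 1.07, with 0 to 2 Mrps genes lower, and Mrpl45 had -0.058 to 0.31, Mrps18b -0.169 to 0.064 and Mrps30 -0.024 to 0.073. Frontal against parietal gave 0 to 1 Mrpl genes higher and 0 to 6 lower, medians of -0.339 to -0.244 (Mrpl) and -0.216 to -0.052 (Mrps), Mrps26 -0.019 to 0.228, Mrps18a -0.002 to 0.302, Mrps18b -0.01 to 0.161, Mrps30 -0.118 to 0.055 and Mrps36 -0.142 to 0.006. Members had 18 to 2443 counts per library, and parietal bone had 2 libraries; a p above the threshold between the calvarial bones does not show that the levels were equal.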
